A study of Homo sapiens with 6 samples.

Results

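Expression of the aminoacyl-tRNA synthetase genes was measured by RNA-Seq in DU-145-DR/tet-MUC1shRNA cells. These are human prostate cancer cells, derived from DU-145 by selection for docetaxel resistance and carrying a DOX-inducible hairpin against MUC1. The genes were chosen by name, as 36 synthetase symbols of the 28008 genes in the count table; the rule uses no measured value, but the set was proposed with earlier results of these data known. TARSL2, a further threonyl-tRNA synthetase gene of the count table, was not among them (log2 fold change 0.23, adjusted p = 0.0910). Of these, 20 encode cytosolic synthetases and 16, whose symbols end in 2, encode mitochondrial synthetases. All 36 passed the filter on low counts. The DOX-negative group (3 libraries) received 0.1% DMSO as vehicle, and the DOX-positive group (3 libraries) received 500 ng/ml DOX, each from triplicate cultures, so that p-values measure the spread between these cultures. The sample labels name the hairpin only for the DOX-positive samples and docetaxel resistance only for the DOX-negative samples, and both groups were taken as the same resistant, hairpin-carrying line. Cells with a control hairpin and DOX were not analysed here, so silencing of MUC1 and exposure to DOX, a tetracycline that is known to act on mitochondrial ribosomes, cannot be told apart.

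Aminoacyl-tRNA synthetases attach each amino acid to its cognate tRNA and so supply the ribosome with charged tRNAs. Human cells hold one set of enzymes for cytosolic translation and another, likewise encoded in the nucleus, that is imported for translation inside mitochondria. The genes GARS and KARS encode both forms of their enzyme. Several cytosolic synthetases are held together with the scaffold proteins AIMP1, AIMP2 and AIMP3 (encoded by EEF1E1) in the multi-synthetase complex. When charged tRNAs run short, the kinase GCN2 (EIF2AK4) phosphorylates eIF2α, and the transcription factor ATF4 then raises genes for amino acid synthesis and uptake and many cytosolic synthetase genes. WARS is in addition a classic interferon-γ-inducible gene.

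The libraries held between 15092691 and 23243713 counts. In the silenced gene, MUC1 transcripts stood at 21.3, 24.8 and 19.7 CPM (read counts divided by TMM-scaled library sizes) in the DOX-negative libraries and at 3.27, 3.87 and 4.44 CPM in the DOX-positive libraries (log2 fold change −2.52 ± 0.15 SE, adjusted p = 4.47e-11). The summed marker levels of fibroblasts, leukocytes and endothelial cells were between 0.22 and 5.59 CPM in all libraries. The summed level of the 4 epithelial markers KRT8, KRT18, EPCAM and CDH1 was 587 to 651 CPM without DOX and 1077 to 1165 CPM with DOX, so that epithelial marker expression moved with the groups compared below. Its part in the results was not tested. In such bulk samples, fewer cells of a type and less RNA per cell cannot be told apart.

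Treatment with DOX was associated with changes in both directions among the cytosolic synthetase genes and with decreases alone among the mitochondrial synthetase genes that passed the test. Of the 20 cytosolic genes, 4 rose (YARS, EPRS, LARS and AARS), 2 fell (WARS and DARS) and 14 did not pass the threshold of an edgeR adjusted p under 0.05. Of the 16 mitochondrial genes, 4 fell (AARS2, EARS2, CARS2 and NARS2), 0 rose and 12 did not pass. One mitochondrial gene, RARS2, was higher at an unadjusted p under 0.05, and DESeq2 likewise called 0 mitochondrial genes higher. Across all 14292 genes tested, 13.0% were called higher and 13.7% were called lower. Of the 36 synthetase genes, 11.1% were called higher and 16.7% lower, shares near those of genes at large. The median log2 fold change was 0.05 for the cytosolic genes, −0.05 for the mitochondrial genes and −0.0034 for all genes tested. The libraries of both groups did not overlap for 6 cytosolic genes that were higher and 3 that were lower with DOX, and for 1 mitochondrial gene that was higher and 5 that were lower. Among all genes tested, 19.5% were higher and 20.2% lower without overlap. The count of 4 mitochondrial decreases depended on single libraries: it was 3 when DOX-negative replicate 1 was left out, 1 when replicate 2 or replicate 3 of the same group was, 3 for DOX-positive replicate 2 and 2 for DOX-positive replicate 3. Without DOX-negative replicate 3, the median of the cytosolic genes was −0.0013.

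**Figure D1:**
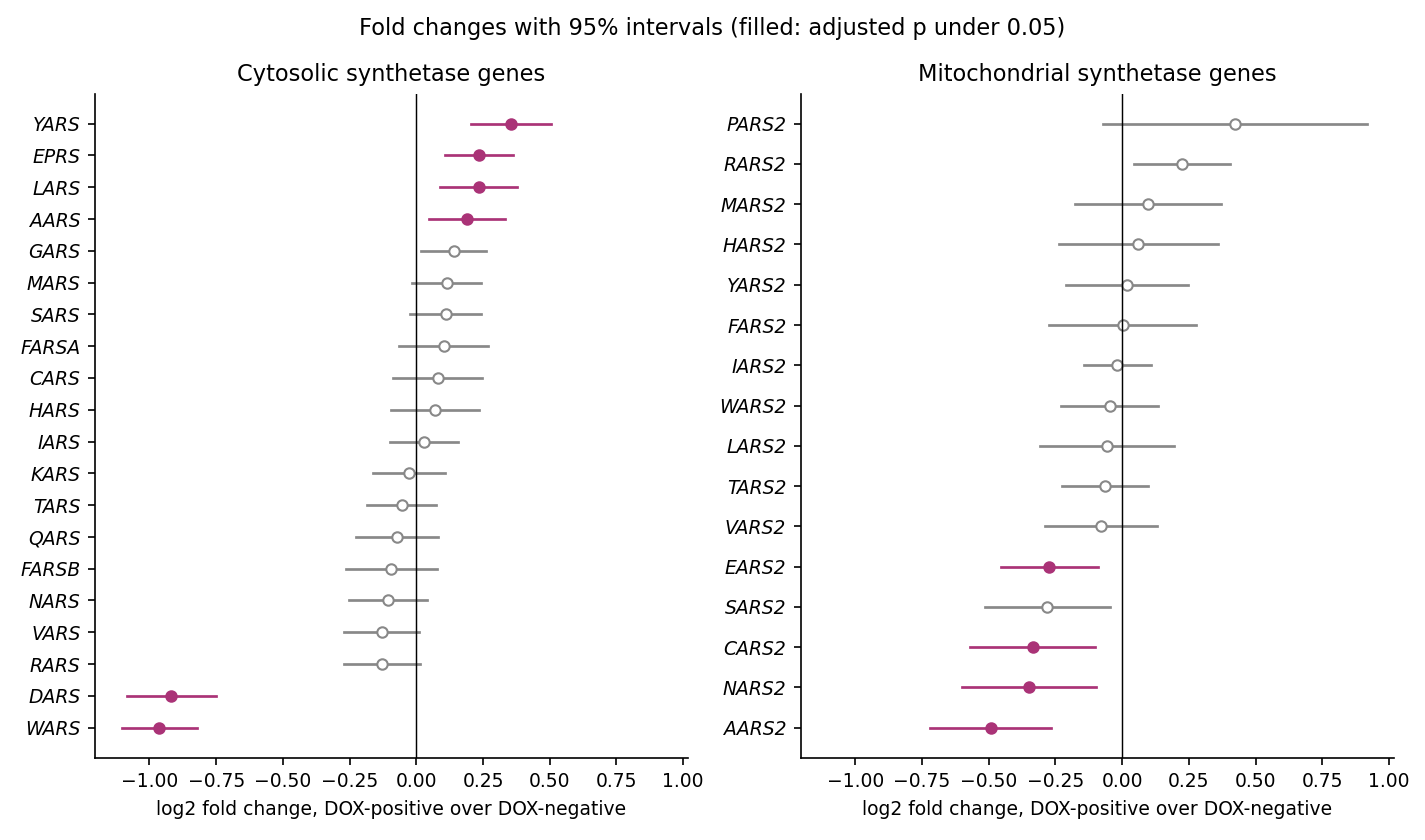
Log2 fold change of each synthetase gene, DOX-positive over DOX-negative (x axis), with its 95% confidence interval from the edgeR fit (bars); filled points passed an adjusted p of 0.05 and open points did not. WARS (−0.96) and DARS (−0.92) stand far below the other cytosolic genes, and PARS2, with 42 to 73 counts a library, has the widest interval.

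The tryptophanyl-tRNA synthetase gene WARS and the aspartyl-tRNA synthetase gene DARS had the largest changes of the 36 genes. WARS (chr14:100333788-100376805, minus strand, GRCh38, GENCODE 29) was at 275, 282 and 252 CPM in the DOX-negative libraries and at 135, 149 and 131 CPM in the DOX-positive libraries. All 3 DOX-positive libraries were below all 3 DOX-negative libraries, and the mean with DOX was 51.3% of that without. The log2 fold change of WARS was −0.96 ± 0.068 (SE), with an adjusted p of 7.59e-10. DARS (chr2:135906677-135986100, minus strand) was at 124, 105 and 129 CPM without DOX and at 60.9, 67.3 and 61.3 CPM with DOX. Again the groups did not overlap, and the mean fell to 52.9% of the DOX-negative mean (log2 fold change −0.92 ± 0.080 SE, adjusted p = 1.99e-08). Both calls held in all 15 alternative analyses, which changed the tool, scaling, filter or unit or left out a library. Annotated genes on the opposite strand share exonic sequence with both, WDR25 with WARS and DARS-AS1 with DARS, and whether the counting used strand is not given in the sources used here. Their means were 2.96 CPM in each group for WDR25, and 1.43 CPM without and 1.84 CPM with DOX for DARS-AS1, so few reads were assigned to either.

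In the multi-synthetase complex, DARS fell together with the scaffold gene AIMP2. AIMP2 (chr7:6009245-6023834, plus strand), which encodes the scaffold protein also known as p38, was at 47.8, 52.2 and 58.3 CPM in the DOX-negative libraries. In the DOX-positive libraries it was at 23.1, 29.7 and 25.6 CPM, with no overlap (log2 fold change −1.02 ± 0.099 SE, adjusted p = 1.05e-07). The scaffold genes AIMP1 (log2 fold change −0.15, adjusted p = 0.153) and EEF1E1 (−0.18, adjusted p = 0.286) did not pass the test. Of the 8 cytosolic synthetase genes of the complex, 2 rose (EPRS and LARS), 1 fell (DARS) and 5 did not pass. Among all genes tested, 13.0% were called higher and 13.7% lower. The median log2 fold change of these 8 genes was 0.00077, against 0.075 for the 12 cytosolic genes outside the complex. AIMP2 shares exonic sequence with EIF2AK1 on the opposite strand, and EIF2AK1 was at a mean of 276 CPM without and 284 CPM with DOX (log2 fold change 0.04, adjusted p = 0.695).

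WARS, DARS and AIMP2 hold the heptamer ATCAGTA in the 3′UTR of their principal transcript. The heptamer had been picked in an earlier scan of the fold changes of these same libraries, so its presence here is a description and no independent evidence. It was searched on the transcript strand in the longest principal transcript of each gene (GENCODE 29). The heptamer was found in the 3′UTR of 3 of the 36 synthetase genes (DARS, WARS and WARS2), in the coding sequence of SARS and RARS2, and in none of the other 31. Of the genes listed beside the synthetases, 4 held it in the 3′UTR: AIMP2, which fell, CEBPG, which rose (log2 fold change 0.26, adjusted p = 0.00987), and XPOT (0.10) and EEF1A1 (−0.07), which did not pass. The windows below show the heptamer in capitals with the 14 bases before it, for the 3 synthetase genes, for AIMP2, and for MUC1, which carries it in the coding sequence. They lie at chr14:100334832-100334852 (minus strand, 38 bases after the stop codon of WARS), chr2:135907069-135907089 (minus strand, 242 bases after the stop codon of DARS), chr1:119031573-119031593 (minus strand, WARS2), chr7:6023738-6023758 (plus strand, AIMP2) and chr1:155187772-155187792 (minus strand, MUC1) of GRCh38.
WARS: aaaagaagtgatgtATCAGTA
DARS: aacttcagacatgcATCAGTA
WARS2: cttataagttttttATCAGTA
AIMP2: ctttcatgcctattATCAGTA
MUC1: ggagacacagttcaATCAGTA

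Of the 12376 tested genes with a principal transcript, 1209 (9.77%) held the heptamer in the 3′UTR, and 32.6% of these were called lower, with a median log2 fold change of −0.11. Of the 880 genes with the heptamer elsewhere in the transcript only, 22.0% were called lower (median −0.05), and of the 10287 genes without it anywhere, 12.3% were (median 0.0067). As the heptamer was picked from the fold changes of these same libraries, these shares describe that choice and are no independent evidence. Transcript and 3′UTR lengths, on which the presence of any heptamer depends, were not compared between these groups of genes. WARS and DARS were among the genes with a 3′UTR match that fell, while WARS2, the mitochondrial tryptophanyl-tRNA synthetase gene with the same 7 bases, did not pass the test (log2 fold change −0.05, adjusted p = 0.745). SARS (0.11, adjusted p = 0.218) and RARS2 (0.22, adjusted p = 0.0602), with the heptamer in the coding sequence, did not pass either. Of the 31 synthetase genes without the heptamer, 4 rose and 4 fell. Short RNAs made from a hairpin can, as background, lower transcripts that match their seed. The sequence of the hairpin was not used here, and a part of such matches in the decreases of WARS, DARS and AIMP2 was not tested.

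The 4 cytosolic genes that rose changed by less than WARS and DARS. YARS, the tyrosyl-tRNA synthetase gene (chr1:32775237-32818153, minus strand), was at 211, 233 and 185 CPM in the DOX-negative libraries and at 272, 258 and 273 CPM in the DOX-positive libraries. All DOX-positive libraries were higher, by 0.35 ± 0.072 (SE) on the log2 scale (adjusted p = 8.35e-04). Its neighbour on the opposite strand, S100PBP, was at a mean of 30.6 CPM without and 24.9 CPM with DOX and so moved the other way. EPRS, which encodes the bifunctional enzyme for glutamate and proline (chr1:219968601-220046658, minus strand), was at 602, 631 and 583 CPM without DOX and at 689, 724 and 724 CPM with DOX. The groups did not overlap, and the log2 fold change was 0.24 ± 0.061 (SE, adjusted p = 0.00619).

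LARS, the leucyl-tRNA synthetase gene (chr5:146113038-146182660, minus strand), was at 444, 469 and 389.7 CPM without DOX and at 484, 524 and 525 CPM with DOX. The lowest DOX-positive library stood just above the highest DOX-negative library (log2 fold change 0.23 ± 0.069 SE, adjusted p = 0.0147). AARS, the alanyl-tRNA synthetase gene (chr16:70252295-70289543, minus strand), was at 627, 660.3 and 542 CPM without DOX. With DOX it was at 703, 702 and 682 CPM, and the groups again did not overlap (log2 fold change 0.19 ± 0.069 SE, adjusted p = 0.0448). In both genes the DOX-negative spread was set by replicate 3, which was the lowest library of its group for 11 of the 20 cytosolic genes. The call of LARS was lost when replicate 3 of either group was left out (adjusted p = 0.0888 for DOX-negative and 0.0635 for DOX-positive). That of AARS was lost when any library other than DOX-negative replicate 2 was left out, with adjusted p-values between 0.0793 and 0.220, and AARS passed in 4 of the 15 alternative analyses.

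**Figure D2:**
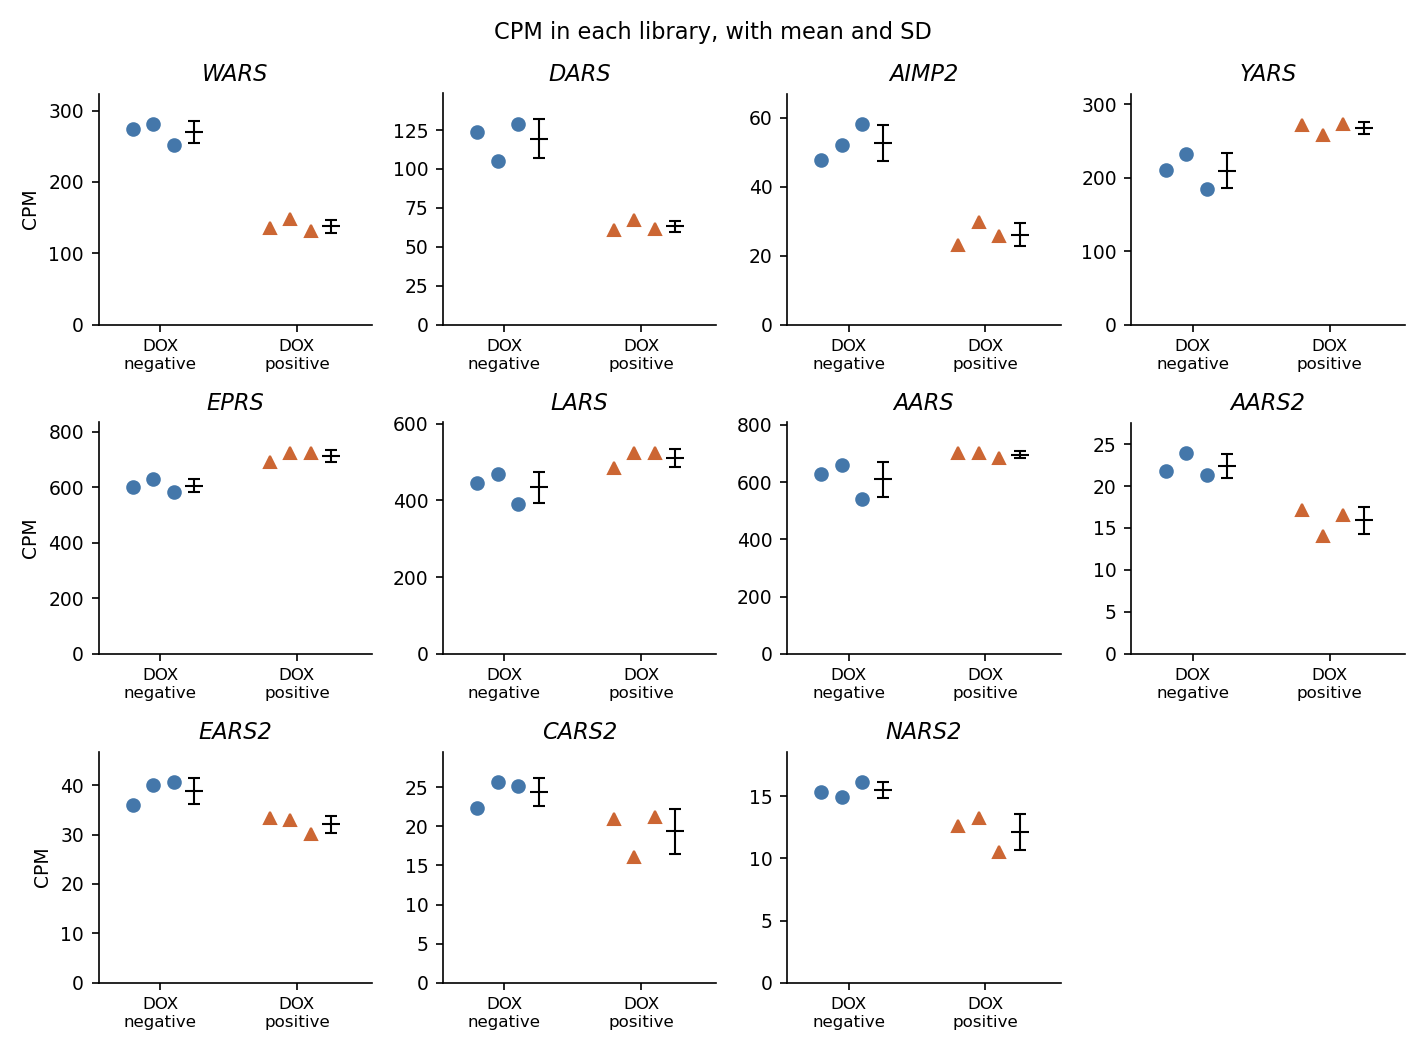
CPM (y axis, from 0) in each DOX-negative (circles) and DOX-positive (triangles) library for the 10 synthetase genes that passed the test and for AIMP2, with the mean and SD of each group (bars, n = 3). With DOX, the means of WARS, DARS and AIMP2 stood between 49.6% and 52.9% of those without, and the other genes shifted by less.

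The other cytosolic genes changed little, with 95% confidence intervals that lay between −0.27 and 0.27 on the log2 scale for all 14. Closest to the threshold was the glycyl-tRNA synthetase gene GARS, at 752, 741 and 743 CPM without DOX and 812, 826 and 826 CPM with DOX, for which the groups did not overlap (log2 fold change 0.14, adjusted p = 0.0828). Within the multi-synthetase complex, the log2 fold change was 0.11 for MARS (methionine, 336 to 385 CPM across the libraries), 0.03 for IARS (isoleucine, 633 to 696 CPM) and −0.03 for KARS (lysine, 217 to 246 CPM). It was −0.07 for QARS (glutamine, 96.9 to 116 CPM) and −0.13 for RARS (arginine, 159 to 194 CPM). Outside the complex, it was 0.11 for SARS (serine, 151 to 172 CPM), 0.08 for CARS (cysteine, 111 to 144 CPM) and 0.07 for HARS (histidine, 50.2 to 58.9 CPM). TARS (threonine) had 1009 to 1116 CPM and a log2 fold change of −0.06. NARS (asparagine, 195 to 241 CPM) and VARS (valine, 173 to 212 CPM) had log2 fold changes of −0.11 and −0.13. The genes of both subunits of the cytosolic phenylalanyl-tRNA synthetase had log2 fold changes of opposite sign, 0.10 for FARSA (52.6 to 63.4 CPM) and −0.09 for FARSB (65.5 to 85.4 CPM), and neither passed.

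The structural classes of the enzymes, which differ in the fold of the catalytic domain, were both represented among the changes. Of the 10 cytosolic class I genes, with the bifunctional EPRS counted here, 3 rose and 1 fell, and of the 10 class II genes, 1 rose and 1 fell. WARS is in class I and DARS in class II. Of the 9 mitochondrial class I genes and the 7 mitochondrial class II genes, 2 each fell. Among all genes tested, 13.0% were called higher and 13.7% lower, and no test was made over a class.

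Promoters of several cytosolic synthetase genes hold a C/EBP-ATF response element, to which ATF4 binds as a dimer with a C/EBP protein. The core TGATGNAA was searched on both strands from 250 bases before to 50 bases after the RefSeq start sites (GRCh38.p14). It was found in 7 of the 16 cytosolic genes with a promoter entry (AARS, CARS, GARS, IARS, MARS, NARS and TARS). Of the 14 mitochondrial genes with an entry, 1 held it (YARS2). A gene was counted if any of its promoter entries matched, and CARS, GARS and TARS each have a further entry without a match. Over all 35116 promoters, 3.62% held it, a share per promoter entry and not per gene. DARS, LARS, VARS, YARS, AARS2 and VARS2 had no entry. The windows below show the match in capitals, read along the strand of the gene, for AARS, the only one of the 8 genes that passed the test, and for CARS, IARS, MARS and TARS, which did not. They lie at chr16:70289675-70289704 (AARS), chr11:3057407-3057436 (CARS), chr9:92293692-92293721 (IARS), chr12:57488053-57488082 (MARS) and chr5:33440956-33440985 (TARS).
AARS: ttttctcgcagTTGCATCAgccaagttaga
CARS: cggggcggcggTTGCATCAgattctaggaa
IARS: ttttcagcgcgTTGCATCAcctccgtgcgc
MARS: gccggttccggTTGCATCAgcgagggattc
TARS: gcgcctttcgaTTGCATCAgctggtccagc

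A match is a description of these letters and not a measure of binding. In the 7 cytosolic genes with a match, log2 fold changes ran from −0.11 (NARS) to 0.19 (AARS), whereas the promoter of EPRS, which rose, and those of WARS, which fell, held no match in these windows.

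The 4 mitochondrial genes that fell did so by 0.27 to 0.49 on the log2 scale, less than WARS and DARS. AARS2, the mitochondrial alanyl-tRNA synthetase gene (chr6:44299654-44313326, minus strand), was at 21.8, 24.0 and 21.3 CPM in the DOX-negative libraries and at 17.1, 14.1 and 16.5 CPM in the DOX-positive libraries. The groups did not overlap, and the log2 fold change was −0.49 ± 0.11 (SE, adjusted p = 0.00178). EARS2, for glutamate (chr16:23522014-23557731, minus strand), was at 35.9, 39.9 and 40.7 CPM without DOX and at 33.2, 33.0 and 30.1 CPM with DOX (log2 fold change −0.27 ± 0.087 SE, adjusted p = 0.0240). CARS2, for cysteine (chr13:110641412-110713603, minus strand), was at 22.4, 25.7 and 25.2 CPM without DOX and at 21.0, 16.1 and 21.2 CPM with DOX. Its DOX-positive replicate 2 stood well under the other libraries (log2 fold change −0.34 ± 0.11 SE, adjusted p = 0.0309). NARS2, for asparagine (chr11:78435961-78574874, minus strand), was at 15.4, 14.9 and 16.2 CPM without DOX and at 12.6, 13.2 and 10.5 CPM with DOX (log2 fold change −0.35 ± 0.12 SE, adjusted p = 0.0369). For all 4 genes every DOX-positive library was lower than every DOX-negative library. On the opposite strand, EARS2 shares exonic sequence with UBFD1 (mean 63.5 CPM without and 62.6 CPM with DOX). CARS2 does so with ING1 (15.8 CPM without and 14.6 CPM with DOX), and AARS2 with TMEM151B, whose level was not examined. Reads in such shared sequence can be told apart only if the counting used strand.

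AARS2 kept its call whichever library was left out, and the other mitochondrial genes did not. The call of EARS2 was lost without DOX-negative replicate 2 (adjusted p = 0.0699), DOX-negative replicate 3 (0.0955) or DOX-positive replicate 3 (0.110). That of CARS2 was lost without DOX-negative replicate 2 (adjusted p = 0.0958), DOX-negative replicate 3 (0.0915) or DOX-positive replicate 2 (0.138). NARS2 passed only when DOX-positive replicate 2 was the library left out, and its other adjusted p-values lay between 0.0527 and 0.169.

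Of the 12 mitochondrial genes that did not pass, RARS2 (arginine) and SARS2 (serine) came closest, in opposite directions. RARS2 was between 28.5 and 29.9 CPM without DOX and at 35.3, 34.2 and 32.4 CPM with DOX, with no overlap (log2 fold change 0.22, adjusted p = 0.0602). SARS2 was at 19.5, 18.3 and 20.0 CPM without and 18.0, 14.1 and 15.4 CPM with DOX (log2 fold change −0.28, adjusted p = 0.0729), and it passed without DOX-positive replicate 1 (adjusted p = 0.0276). PARS2, for proline, had the fewest reads of the family, 46, 68 and 42 counts without and 73, 70 and 61 counts with DOX. Its log2 fold change of 0.42 carried a 95% confidence interval from −0.07 to 0.92, so a change was not detectable at this depth. IARS2, for isoleucine, was at 249.5 to 269 CPM across the libraries, with a log2 fold change of −0.02.

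The other mitochondrial genes had log2 fold changes between −0.08 and 0.10. These were 0.10 for MARS2 (10.3 to 13.3 CPM), 0.06 for HARS2 (8.31 to 11.97 CPM), 0.02 for YARS2 (14.5 to 16.3 CPM) and 0.0020 for FARS2 (8.69 to 9.90 CPM). They were −0.05 for WARS2 (30.1 to 33.1 CPM), −0.06 for LARS2 (16.2 to 22.7 CPM), −0.06 for TARS2 (45.8 to 51.2 CPM) and −0.08 for VARS2 (27.8 to 35.7 CPM). PARS2 aside, the 95% confidence intervals of the mitochondrial genes that did not pass lay between −0.52 and 0.40, wider than those of the cytosolic genes.

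Levels between genes were compared per transcript length with the deposited TPM values, which take transcript length into account, rescaled to the same total after leaving out 5 short noncoding RNAs that held 34.4% to 64.4% of the TPM of a library. The cytosolic genes summed to 5505 ± 304 rescaled TPM (SD, n = 3) without DOX and 5506 ± 99.6 with DOX. The mitochondrial genes summed to 493 ± 15.9 rescaled TPM without and 464 ± 8.84 with DOX. The ratio of both sums was 11.6, 11.3 and 10.6 without DOX and 11.8, 11.9 and 11.8 with DOX. The summed cytosolic level thus differed by less than the spread between libraries, while the ratio was higher in every DOX-positive library. VARS, VARS2, CARS, SARS, RARS2 and CARS2 enter these sums and the ratio, although their deposited TPM were low for their counts, as set out below.

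Within the cytosolic set, TARS (989 ± 33.0 rescaled TPM without DOX), GARS (836 ± 22.7) and AARS (514 ± 63.8) were the most abundant per length, and HARS (66.7 ± 1.51) was among the least. TARS, GARS and AARS did not overlap one another in the DOX-negative libraries. Without DOX, WARS (259 ± 21.4) stood near RARS (244 ± 16.1) and LARS (242 ± 28.6). With DOX it was at 130 ± 9.31 and DARS was at 55.6 ± 3.65, below HARS (68.8 ± 4.88). The mitochondrial genes ran from 206 ± 8.28 rescaled TPM for IARS2 and 51.1 ± 3.58 for TARS2 down to 3.32 ± 0.947 for PARS2. VARS, VARS2, CARS, SARS, RARS2 and CARS2 were left out of this order. For VARS and VARS2 the ratio of CPM to rescaled TPM was 10.1 and 8.23, while that of the other 34 genes was between 0.609 and 2.08. Per kilobase of the longest principal transcript (4312 and 4073 bases), the ratio was 2.34 for VARS and 2.02 for VARS2, against a median of 0.353 for the other 34 genes. It was also above that median for SARS (0.979), CARS (0.776), RARS2 (0.663) and CARS2 (0.612). The deposited TPM of these genes were thus low for their counts too. For DARS it was 0.474 and for HARS 0.322, so the order of DARS and HARS rests on the deposited TPM. VARS and VARS2 both lie on chromosome 6 (chr6:31777518-31795953 and chr6:30908242-30926459), and the gene lengths behind the deposited TPM are not given in the sources used here.

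**Figure D3:**
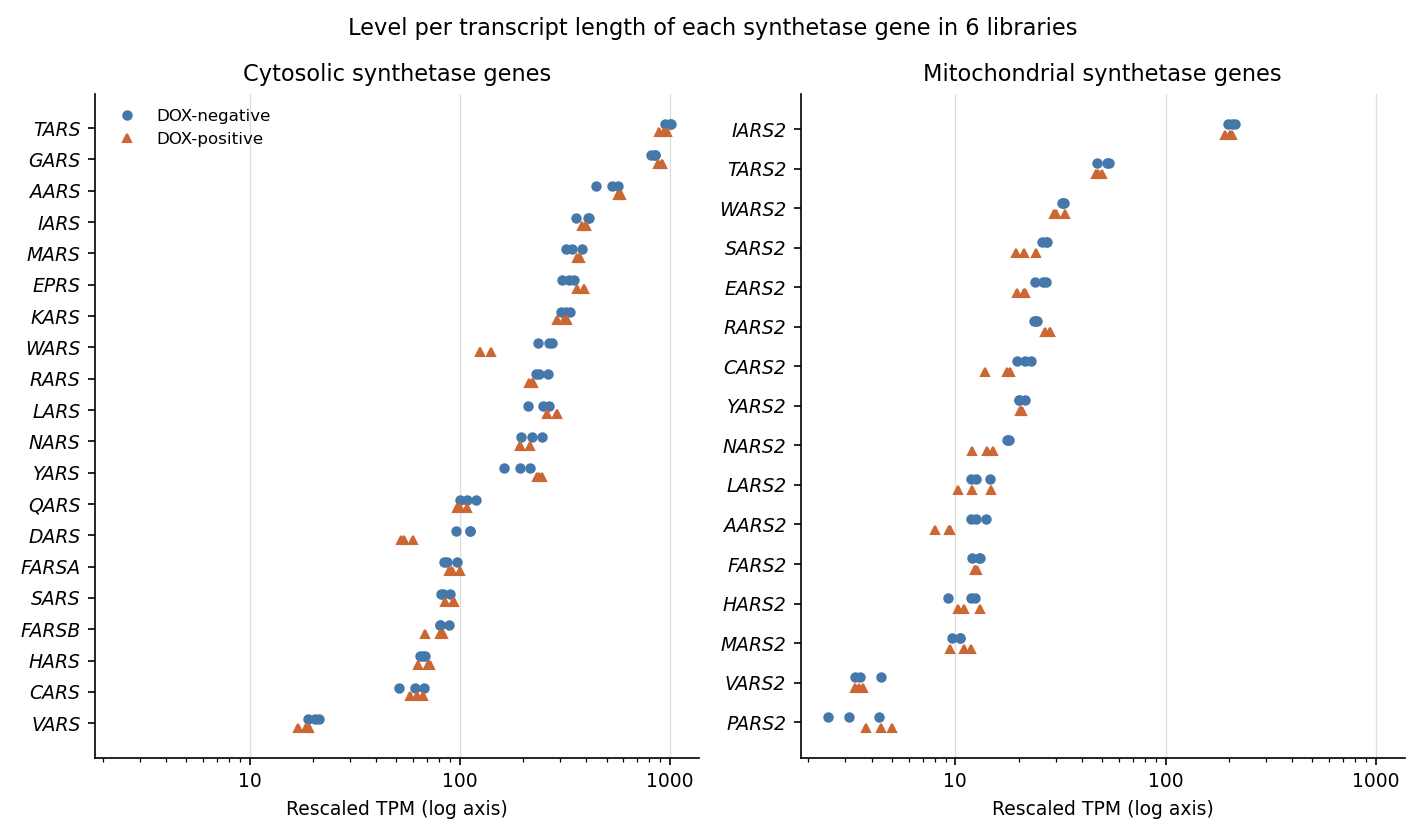
Rescaled TPM (x axis, log scale) of each synthetase gene in each DOX-negative (circles) and DOX-positive (triangles) library, ordered by the DOX-negative mean. IARS2 (206 TPM without DOX) is the one mitochondrial gene at the level of the middle cytosolic genes, and WARS and DARS are the genes in which the groups stand farthest apart. The positions of VARS, VARS2, CARS, SARS, RARS2 and CARS2 depend on deposited TPM that are low for their counts.

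Each of the 16 mitochondrial genes was paired with the cytosolic gene for the same amino acid, with EPRS entering once for glutamate and once for proline, and FARSA, the catalytic subunit, standing for phenylalanine. The cytosolic member had the higher log2 fold change in 12 pairs and the lower in 4 (WARS/WARS2, RARS/RARS2, EPRS/PARS2 and VARS/VARS2). Among the 12, the difference was 0.0088 for TARS/TARS2, 0.0089 for HARS/HARS2, 0.016 for MARS/MARS2 and 0.046 for IARS/IARS2. Among the 4, it was −0.05 for VARS/VARS2. These differences were smaller than the SE of either gene of the pair. No test was made over the pairs, which share their libraries. The ratio of cytosolic to mitochondrial rescaled TPM without DOX ran from a mean of 1.90 for IARS/IARS2 to 103 for EPRS/PARS2. For tryptophan, WARS/WARS2 was at 8.27, 8.42 and 7.23 without DOX and at 4.25, 4.26 and 4.14 with DOX, the largest shift toward the mitochondrial gene. For arginine, RARS/RARS2 was at 9.98, 9.43 and 10.9 without and 7.55, 7.97 and 8.28 with DOX. In these pairs the ratio was lower in every DOX-positive library. The level of RARS/RARS2 rests on a deposited TPM of RARS2 that was low for its counts.

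The opposite shift was largest for alanine, where the cytosolic gene rose and the mitochondrial gene fell. AARS/AARS2 was at 42.3, 40.5 and 37.4 without DOX and at 60.3, 73.4 and 60.7 with DOX. EPRS/EARS2, for glutamate, was at 13.8, 13.0 and 11.8 without and 17.1, 18.1 and 19.8 with DOX. The ratio was also higher without overlap for YARS/YARS2, SARS/SARS2 and CARS/CARS2, and it overlapped between the groups for the other pairs. The levels of SARS/SARS2 and CARS/CARS2 rest on deposited TPM of SARS, CARS and CARS2 that were low for their counts.

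**Figure D4:**
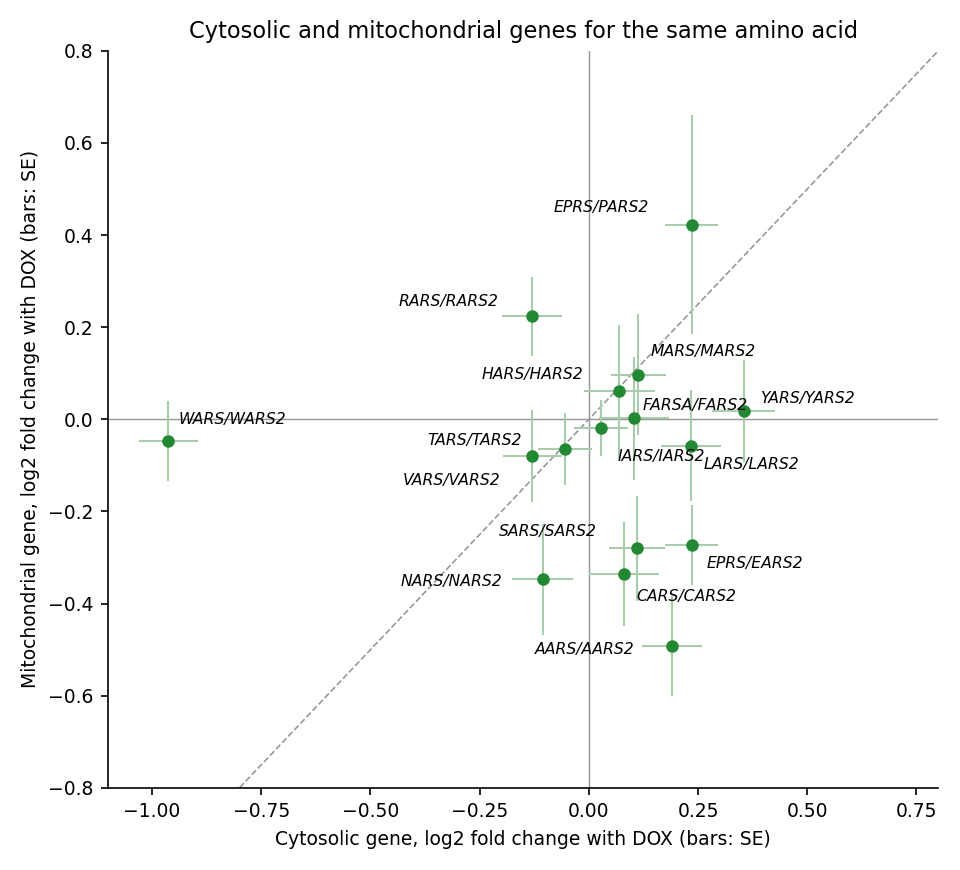
Log2 fold change with DOX of the cytosolic gene (x axis) against that of the mitochondrial gene for the same amino acid (y axis), with SE bars; the dashed line marks equal change. WARS/WARS2 lies alone at the left, at −0.96 and −0.05, and 12 of the 16 pairs lie below the line. Of these, TARS/TARS2, HARS/HARS2, MARS/MARS2 and IARS/IARS2 lie close to it.

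Genes that act beside the synthetases were mostly not called. Among all genes tested, 13.0% were called higher and 13.7% lower, the shares beside which the counts in these and the following lists stand. No test was made over a list. All 4 genes of the mitochondrial tRNA amidotransferase and formyltransferase (QRSL1, GATB, GATC and MTFMT), which complete mitochondrial glutaminyl-tRNA and formylate the initiator tRNA, did not pass, with log2 fold changes between −0.17 and 0.13. Of these, QRSL1 was lower at an unadjusted p under 0.05, and DESeq2 called none. Of 15 genes of tRNA maturation, export and proofreading, 14 were tested, 3 rose and 3 fell. DTD2, a D-aminoacyl-tRNA deacylase (0.43), ELAC1, a tRNA 3′ endonuclease (0.43), and TSEN15, a subunit of the tRNA splicing endonuclease (0.23), rose. TRNT1, which adds the 3′ CCA end (−0.35), TSEN34, a catalytic subunit of the same endonuclease (−0.34), and ELAC2, the tRNase Z of nucleus and mitochondria (−0.20), fell. Of the 6 selenocysteine genes, SEPHS2 (0.49) and SEPSECS (0.47), both of which act in selenocysteine formation, rose, and SEPHS1 (−0.31) fell.

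Of the 5 cytosolic elongation factor genes, 0 passed, with log2 fold changes between −0.16 and 0.06. EEF1B2 alone was lower at an unadjusted p under 0.05, and DESeq2 called none. Of the 4 mitochondrial elongation factor genes, GFM2, which encodes the factor for ribosome recycling, fell from 103, 99.1 and 92.9 CPM to 69.0, 71.9 and 71.5 CPM (log2 fold change −0.47 ± 0.070 SE, adjusted p = 2.99e-05). GFM1, for translocation, rose (0.20), and TUFM and TSFM, which deliver the charged tRNA and recycle the delivery factor, did not pass.

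Among the 6 genes for eIF2α kinases and phosphatase subunits, EIF2AK4, the GCN2 gene, rose (log2 fold change 0.34). PPP1R15A, a phosphatase subunit that reverses the signal of GCN2, rose too (0.49). The other 4 of these 6 genes did not pass, and 0 fell. Of the 15 genes of the ATF4 arm, 4 rose and 0 fell, against 13.0% of all genes tested called higher and 13.7% lower. SESN2, a stress-induced inhibitor of mTORC1 signalling, was at 28.4, 33.8 and 26.8 CPM without DOX and at 78.0, 70.3 and 72.1 CPM with DOX (log2 fold change 1.31 ± 0.090 SE, adjusted p = 5.78e-10). TRIB3, a pseudokinase, was at 95.7, 88.5 and 80.7 CPM without and 154, 166 and 138 CPM with DOX (0.79 ± 0.077 SE, adjusted p = 1.05e-07). DDIT3 (CHOP, 0.48) and CEBPG, the C/EBP partner of ATF4 (0.26), rose as well. DDIT3 shares exonic sequence with MARS on the opposite strand, so reads in that shared sequence can be told apart only if strand was used. ATF4 itself had a log2 fold change of 0.14 (adjusted p = 0.101), and the amino acid synthesis genes ASNS (−0.0066), PSAT1 (0.10) and PHGDH (0.09) did not pass. By an unadjusted p under 0.05 and by DESeq2, likewise 0 genes of the eIF2α and ATF4 lists were lower.

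Of the 9 amino acid transporter genes, 3 rose and 0 fell, also by DESeq2. The shares over all genes tested were 13.0% higher and 13.7% lower. Those that rose were SLC7A5, the large neutral amino acid exchanger (0.27), and SLC38A1 (0.26) and SLC38A2 (0.24), which take up small neutral amino acids. SLC6A9 (0.27, adjusted p = 0.0512) was higher at an unadjusted p under 0.05 only, and 0 transporter genes were lower at that threshold. Of the interferon-γ response genes looked at because WARS is one, TAP1 (−0.19) and GBP2 (−0.36) were lower at an unadjusted p under 0.05 only, and IRF1 had a log2 fold change of −0.05. GBP1, IDO1 and CXCL10 had too few reads to be tested.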

How the data were processed

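RNA-Seq libraries were poly(A)-selected and stranded (TruSeq Stranded mRNA). The authors deposited whole-number read counts per gene, which the file ties to STAR. The submitters' notes also name DESeq2. Counting settings, genome build and annotation are not given in the sources used here. The authors also deposited TPM values, scaled to a common total. Samples were grouped by their titles.

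The counts were fitted with edgeR 4.0.16 under R 4.3.3 (filterByExpr, TMM, glmQLFit and glmQLFTest, two-sided, group as the only term), with Benjamini-Hochberg adjustment over all 14292 genes tested and a threshold of 0.05. CPM values use TMM-scaled library sizes. Totals of 15092691 to 23243713 counts put the floor of 3 counts at 0.129 to 0.199 CPM, which covers counting error only. Replicate libraries were not duplicates of one another (chi-square per degree of freedom 3.65 to 19.0).

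The members, the 10 gene lists, the heptamer and the tests were chosen with earlier results of these data known. All members were named, those past the threshold with values in every library. Of each list, the genes that passed were named. Some results are not reported here. Other genes named in the text (AIMP1, EEF1E1, ATF4, ASNS, PSAT1, PHGDH and those near the threshold) were picked after their values were seen. Sequences came from GENCODE 29 and RefSeq (GRCh38), matched by symbol. The fits were tested on simulated data. Alternatives were DESeq2 1.42.0, RLE factors, library totals, 2 other filters, a replicate block, limma 3.58.1 on log2(TPM + 1), log2(TPM + 0.1) and rescaled TPM, and each library left out in turn. Fold changes of the TPM fits are on the log2(TPM + pseudocount) scale.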

Additional observations from a re-analysis of the deposited data

How the results depend on the processing

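Over 15 alternative analyses of 36 genes, 451 of the 540 values kept their direction and their side of the threshold, 34 lost the call with the same sign, 4 gained one and 51 changed sign. The sign changes include 8 further lost calls, those of AARS, EPRS, LARS and YARS with log2(TPM + 1) and log2(TPM + 0.1), so that 42 calls were lost in all. WARS and DARS passed in all 15, YARS, EPRS and AARS2 in 13, LARS in 10, EARS2 and CARS2 in 9, NARS2 in 7 and AARS in 4. The fits of the deposited TPM moved the median of all genes, by −0.35 for log2(TPM + 1) and −0.38 for log2(TPM + 0.1). Changes in these fits are relative to that shift: of all calls, 6.78% and 7.07% were higher, against 48.8% in the main analysis and 39.3% with library totals. With the short noncoding RNAs left out (rescaled TPM, likewise with a pseudocount of 1), the shift was −0.021. With log2(TPM + 1), 295 genes were called, among them 2 cytosolic (WARS and DARS) and 0 mitochondrial genes, and the medians were −0.34 and −0.40. With log2(TPM + 0.1), the counts were 311, 2 and 0, and the medians were −0.34 and −0.44. Before the shift is taken off, 16 genes turned to values below 0 in both fits. With log2(TPM + 1) and log2(TPM + 0.1) in turn, these were −0.20 and −0.20 for AARS, −0.30 and −0.31 for CARS, −0.16 and −0.16 for EPRS, −0.29 and −0.29 for FARSA, −0.25 and −0.25 for GARS, −0.32 and −0.33 for HARS, and −0.36 and −0.36 for IARS. They were −0.16 and −0.16 for LARS, −0.28 and −0.28 for MARS, −0.28 and −0.28 for SARS, −0.034 and −0.033 for YARS, −0.33 and −0.38 for FARS2, −0.27 and −0.31 for HARS2, −0.25 and −0.30 for MARS2, −0.16 and −0.17 for RARS2, and −0.34 and −0.37 for YARS2. After it is taken off, 2 and 0 signs changed. With rescaled TPM, FARS2 was at −0.019 and YARS2 at −0.0034. With library totals, IARS was at −0.0079, FARS2 at −0.03 and YARS2 at −0.016. With at least 10 counts in every library, FARS2 was at −0.0018.

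With single libraries left out, the count of mitochondrial decreases ranged from 1 to 4 and the cytosolic median from −0.0013 to 0.059. Genes near 0 changed sign in some of these fits: HARS2 ranged from −0.058 to 0.13, YARS2 from −0.012 to 0.075, FARS2 from −0.049 to 0.045, LARS2 from −0.19 to 0.056, VARS2 from −0.14 to 0.039, CARS from −0.0020 to 0.16, IARS from −0.015 to 0.052, IARS2 from −0.052 to 0.0028 and KARS from −0.068 to 0.023. The replicate numbers did not pair the samples, since libraries with the same number did not deviate together (correlations of −0.046, −0.12 and −0.032). With replicate number as a block, 3158 genes, 5 cytosolic and 2 mitochondrial genes were called, with AARS (adjusted p = 0.0701), EARS2 (0.0542) and NARS2 (0.0599) past the threshold no longer. DESeq2 in addition called GARS (adjusted p = 0.0299). Besides the fit without DOX-positive replicate 1, SARS2 passed with library totals (0.0451) and rescaled TPM (0.0427). The cause of these changes was not tested. Depth limits PARS2 most, with 42 to 73 counts a library.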
